A study of Rattus norvegicus with 4 samples.

Results

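The tumour suppressor p53 is a transcription factor that stress signals, above all DNA damage, stabilise. Described here are 9 genes listed as its targets: Mdm2, Cdkn1a, Ccng1, Plk3, Gadd45a, Gadd45b, Bax, Bbc3 and Rrm2b. They were chosen by name, with earlier results of these data known. They were found through the RefSeq accessions of the array probes, 9 of 16581 named genes. All 9 had a probe. The cells were NR8383, an established line of rat alveolar macrophages that was started from lung lavage and grows partly attached and partly floating. Every culture had received Printex 90, a carbon black made of aggregated nanoparticles, at 0.9 cm²/cm² for 4 h, and had been through 20 passages. RNA of 4 biological replicates was hybridised to 4 arrays with a single dye. The series set these cells against cells without particles, which were not analysed here, so that every value below is a level in exposed cells or a difference between replicates and no effect of carbon black was computed.

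In unstressed cells the ubiquitin ligase Mdm2, itself a p53 target, keeps p53 low. Once p53 is stabilised it binds response elements near its targets and raises genes that halt the cell cycle (Cdkn1a), sense and signal stress (Gadd45a, Plk3), permeabilise mitochondria (Bax, Bbc3) and supply nucleotides for repair (Rrm2b). Several of these genes also answer to other pathways. Gadd45b is a well-known target of NF-kappaB, and Gadd45a can be induced through the ATF4 branch of the stress response.

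A p53 response element is built from 2 copies of a degenerate half-site of 10 bases. RefSeq windows of assembly GRCr8, from 250 bases before to 50 bases after the transcript start used there, were held for 6 members, and the half-site consensus was searched in them on both strands. It was present in those of Cdkn1a, Ccng1 and Gadd45a and was not found in those of Mdm2, Plk3 and Gadd45b. Of all 33469 windows in the table, 7.98% hold it. With 2 half-sites side by side and at most 1 mismatch between them, Cdkn1a and Ccng1 matched, as did 0.0717% of all windows (24). The pairs of half-sites in Cdkn1a and Ccng1, with 1 mismatch each, are close to the form of DNA that p53 is known to recognise. In the Gadd45a window the best adjacent pair had 4 mismatches, so its stretch is given as a half-site. Only adjacent pairs were scored, and half-sites with bases between them were not searched as pairs. Capitals mark the 2 adjacent half-sites in Cdkn1a and Ccng1 and the lone half-site in Gadd45a.
Cdkn1a, chr20:7150701-7150780, plus strand: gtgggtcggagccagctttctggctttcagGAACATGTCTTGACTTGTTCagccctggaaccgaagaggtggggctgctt
Ccng1, chr10:25685069-25685126, minus strand: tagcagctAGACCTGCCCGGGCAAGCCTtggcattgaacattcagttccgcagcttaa
Gadd45a, chr4:97486808-97486877, minus strand: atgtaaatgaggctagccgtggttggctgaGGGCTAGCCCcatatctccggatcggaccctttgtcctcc

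Counted from the transcript start, the capitals begin at -201 in Cdkn1a, -242 in Ccng1 and -48 in Gadd45a. Among other promoter motifs, CCAAT lay in the windows of Mdm2, Ccng1, Gadd45a and Gadd45b (37.5% of all windows). The same 4 members held GGGCGG (33.1% of all windows), and TATAAA was found in the window of 0 of 6 (14.2% of all windows). These matches are descriptions of sequence. Occupancy by p53 was not measured, and a window without a match says nothing about elements elsewhere in the gene.

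Levels below are log2 processed intensities from which the 75th percentile of all probes on that array was subtracted, so that a gene above 0 is brighter than 75% of the probes. A level belongs to its own probe and is not set against the level of another gene. The scanner software marks a spot as well above background by its own test. It did so for 17078, 18635, 17319 and 17079 of 45598 probes on replicates 1 to 4, and 0 spots were saturated. The label of the cells was checked on 10 alveolar macrophage markers, and 9 were detected in this sense on each array while Marco was on none. Of 26 measured markers of other lung and blood cells, 5 were detected on at least 1 array (Ager, Lck and Pax5 on all, S100a8 and Cdh5 on some). Of these, the neutrophil gene S100a8 had levels of -4.31, -0.27, -2.58 and -0.40 (detected on 2 arrays, adjusted p of its spread = 0.0727, limma), and the B cell gene Pax5 had a level of 0.69 on replicate 1 and one higher by 0.81 log2 units on replicate 4. Both were lowest on replicate 1, as several members below were, and their part in the differences between replicates was not tested. The other 21 were on none, among them the surfactant gene Sftpc, the epithelial adhesion gene Epcam and the T cell gene Cd3e. In such bulk RNA a lower share of expressing cells and less RNA per cell cannot be told apart.

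Of the 9 members, 8 were well above background on each of the 4 arrays, and Rrm2b on 1. For comparison, 48.0% of named genes met this on every array. The detected members therefore included the feedback gene, the 3 cell cycle and stress kinase genes, both Gadd45 genes and both death genes, with the nucleotide supply gene apart.

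**Figure D1:**
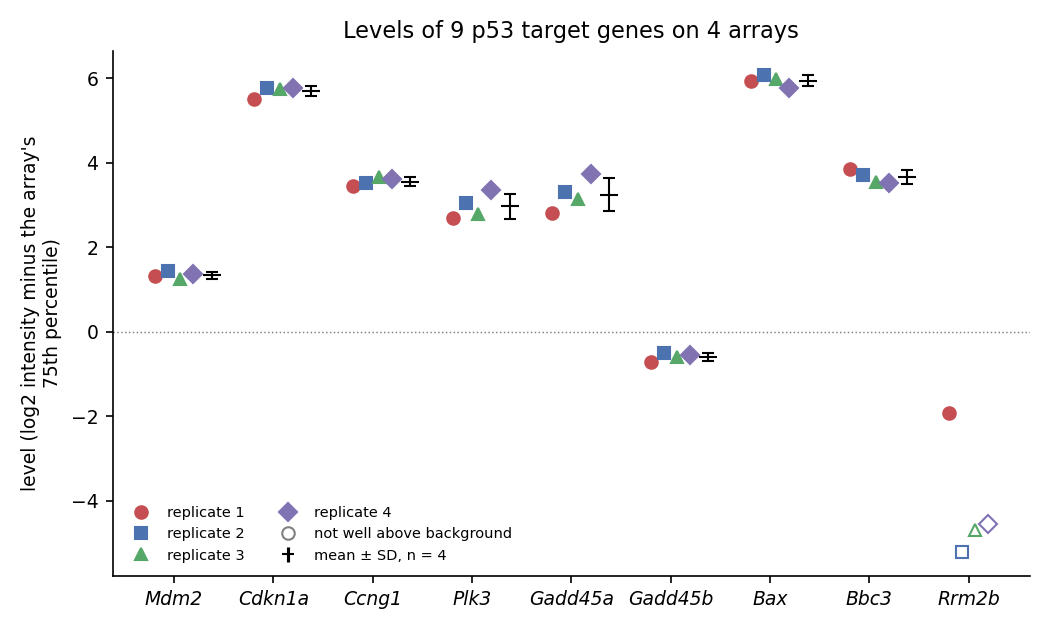
Levels of the 9 members on each array (vertical axis, log2 intensity relative to the 75th percentile of that array), with 1 marker for each replicate and the mean ± SD beside them for members detected on all arrays. Open markers are not well above background. The 8 detected members keep within 0.92 log2 units between arrays, and Rrm2b is filled on replicate 1 alone.

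Mdm2, which ubiquitinates p53 and is the centre of its negative feedback, had a narrow spread. Its levels were 1.31, 1.43, 1.24 and 1.37 on replicates 1 to 4. The mean was 1.34 ± 0.082 (SD, n = 4), and the 4 arrays lay within 0.19 log2 units of each other with no array apart. The probe was spotted 2 times on each array, and the SD between its spots was 0.022, 0.019, 0.26 and 0.028 on replicates 1 to 4. On replicate 3, which held the lowest Mdm2 level, the spots of the same array thus differed by more than the replicates did.

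Cdkn1a, an inhibitor of cyclin-dependent kinases and the main arrest gene downstream of p53, was bright on all arrays. Its probe gave intensities of 4990, 5053, 3395 and 3470, which correspond to levels of 5.51, 5.75, 5.74 and 5.77. Replicate 1 was the lowest array, and the other 3 lay within 0.030 log2 units of each other. This probe was spotted 10 times per array. On replicate 1 the spots ran from 5.34 to 5.60 with a median of 5.57, and the lowest spot of any other array was 5.62, on replicate 3, so that the spots of replicate 1 did not overlap with those of the other arrays. The SD between spots was 0.091 on replicate 1 and from 0.046 to 0.064 on the others. Spots of 1 array are technical repeats of the same RNA, so their separation does not measure variation between biological replicates.

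A second Cdkn1a probe to the same accession gave a partly different picture. It was dim, with intensities of 40.0, 28.6, 28.5 and 27.2, although well above background on all arrays. Its levels were -1.45, -1.71, -1.16 and -1.23, with the lowest on replicate 2. The bright probe exceeded it by 6.90 to 7.47 log2 units on the 4 arrays. Replicate 1 lay below replicates 3 and 4 with both probes. Replicate 4 exceeded replicate 1 by 0.22 log2 units for the dim probe and 0.25 for the bright one. The probes differed on replicate 2, which was the lowest array for the dim probe alone. The software's own error was 13.5% to 16.3% of the signal for the dim probe against 10.0% for the bright one.

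Ccng1 encodes cyclin G1, which brings a phosphatase to Mdm2. Its levels were 3.43, 3.51, 3.65 and 3.60 (mean 3.55 ± 0.097, n = 4). The spread was 0.22 log2 units from lowest to highest, with replicate 1 lowest.

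Plk3, a polo-like kinase of the stress response, varied more. Its levels were 2.69, 3.04, 2.79 and 3.34 (mean 2.97 ± 0.29, n = 4), so that replicate 4 exceeded replicate 1 by 0.65 log2 units or 1.57-fold, a difference that 11.6% of the tested genes matched or exceeded in either direction. Replicates 1 and 3 were the low arrays and replicates 2 and 4 the high ones.

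Gadd45a, a small acidic protein that binds the replication clamp and stress kinases, had the widest spread of the 8 detected members. Its levels were 2.81, 3.30, 3.13 and 3.73 (mean 3.24 ± 0.38, n = 4). Replicate 4 was above replicate 1 by 0.92 log2 units or 1.89-fold. A difference at least as large in either direction between these 2 arrays was found for 6.46% of the tested genes. The order of the arrays was the same as for Plk3, with replicate 1 lowest, then 3, then 2, and replicate 4 highest. Of all tested genes, 6.08% had this order. The mean levels of Cdkn1a had it too, but its replicates 2 to 4 differed by less than the SD between spots, and their spot medians of 5.76, 5.75 and 5.75 did not keep it.

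Gadd45b, the relative of Gadd45a that NF-kappaB induces, had a narrower spread. It too was lowest on replicate 1, and it was highest on replicate 2. Its levels were -0.72, -0.50, -0.60 and -0.56 (mean -0.60 ± 0.092, n = 4). The difference between replicates 4 and 1 was 0.16 log2 units. Its probe had 2 spots per array, with SDs between them from 0.033 to 0.12, about the size of the spread between arrays. The third gene of the family, Gadd45g, was detected on 0 of 4 arrays.

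The death genes had their lowest level on another array. Bax, which forms pores in the outer mitochondrial membrane, had levels of 5.92, 6.08, 5.98 and 5.77 (mean 5.94 ± 0.13, n = 4), highest on replicate 2 and lowest on replicate 4. Its second probe, to the same accession, gave 3.63, 3.76, 3.71 and 3.52 with the same order of arrays. The brighter probe exceeded the dimmer by 2.25 to 2.32 log2 units, and the SD of that difference over the arrays was 0.033, so the pair moved together. Bbc3 encodes PUMA, which releases Bax from its inhibitors. Its levels were 3.86, 3.72, 3.54 and 3.52 (mean 3.66 ± 0.16, n = 4), highest on replicate 1 and lowest on replicate 4. The difference of replicate 4 minus replicate 1 was -0.15 for Bax and -0.34 for Bbc3, and 63.4% and 31.9% of the tested genes differed by at least as much in either direction.

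**Figure D2:**
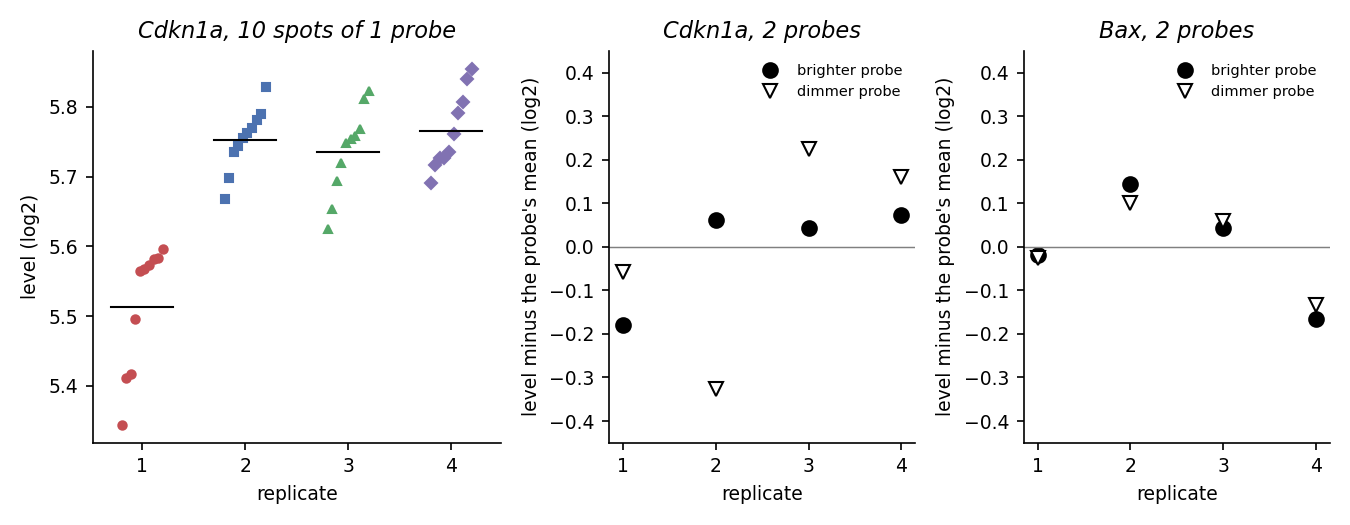
Left, levels of the 10 spots of the bright Cdkn1a probe on each array, sorted within the array, with their mean as a line; middle and right, each of the 2 probes of Cdkn1a and of Bax as level minus its own mean over 4 arrays (log2). The spots of replicate 1 lie at or below 5.60, the 2 Bax probes lie close together on every array, and the 2 Cdkn1a probes do not.

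Rrm2b, the small subunit of ribonucleotide reductase that p53 induces for repair outside S phase, was at the limit of measurement. Its intensity was 28.9 on replicate 1, and 2.53, 2.48 and 2.71 on replicates 2, 3 and 4. The spot on replicate 1 was marked as well above background, with an error of 21.6% of the signal by the software's own estimate, and on the other arrays that error was 100% or 101%. The lowest marked intensity of any spot was 22.3 on replicate 1 and 11.3, 10.8 and 12.1 on the others, so Rrm2b was bounded by those values on replicates 2 to 4. Background was higher on replicate 1, where the 308 negative control spots had a 99th percentile of 27.1, while it was 7.40, 4.95 and 6.25 on the others, while of 790 named genes marked on exactly 1 array, the arrays of replicates 1 to 4 held 263, 358, 78 and 91. The part of that background in the Rrm2b value was not tested. The subunits of the S phase enzyme, Rrm1 and Rrm2, had levels of 5.43 ± 0.12 and 6.23 ± 0.13 (n = 4) and were detected on all arrays.

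The spread between replicates of each gene was then set against that of genes of like brightness, with limma. It covered 14927 genes, unnamed transcripts included, that were well above background on at least 2 arrays. All shares of tested genes given here are over this mixed set. Of the 8 members tested, 0 passed at an adjusted p under 0.05, where 0.462% of all tested genes did (69). At an unadjusted p under 0.05 only Gadd45a passed, where 5.07% of all tested genes did (757). Gadd45a no longer did so with the normexp background correction, with a prior without a trend or without replicate 4, at unadjusted p = 0.14, 0.109 and 0.102 (limma across genes). Plk3, at unadjusted p = 0.0538, fell below 0.05 under 7 of 12 alternatives (limma across genes). The SD of Gadd45a was 2.78 times the SD fitted for its brightness (adjusted p = 0.552, limma), and that of Plk3 was 2.09 times (adjusted p = 0.987, limma). The SDs of Mdm2, Ccng1 and Gadd45b were below the fitted value, at 0.526, 0.716 and 0.401 times, as was that of Cdkn1a at 0.910 times. Bax stood at 0.987 and Bbc3 at 1.18 times. The median SD of the 8 members was 0.125 log2 units, beside 0.161 over all tested genes, and these 2 medians were not matched for brightness. A p that misses the threshold does not show that a gene was steady.

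**Figure D3:**
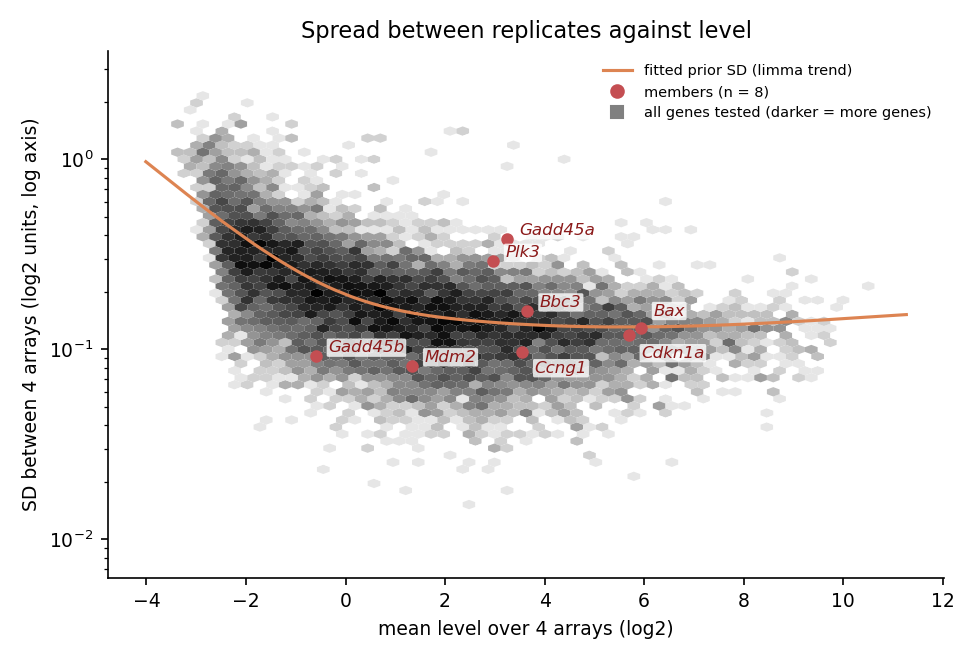
SD between the 4 arrays (vertical, log axis, log2 units) against mean level (log2) for all 14927 tested genes, shaded by their number, with the SD fitted by limma for each brightness as a line and the 8 tested members as red points. Gadd45a and Plk3 lie above the line, at 2.78 and 2.09 times the fitted SD, and Gadd45b lies farthest below it.

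Replicate 1 was the lowest array for 5 of the 8 members, namely Cdkn1a, Ccng1, Plk3, Gadd45a and Gadd45b, where it was the lowest for 39.5% of all tested genes. The members lay, in the median, away from their own 4-array means by -0.12, 0.068, -0.050 and 0.044 log2 units on replicates 1 to 4, and all tested genes by -0.045, 0.069, 0.015 and -0.024. With another background correction of the raw signals only Gadd45b was lowest on replicate 1, where 27.6% of all tested genes were, and the difference of replicate 4 minus replicate 1 fell from 0.92 to 0.58 for Gadd45a and from 0.65 to 0.31 for Plk3. The low position of replicate 1 was not kept under that correction. It also adds an offset of 50 to every signal before scaling. The 75th percentile of the processed intensities was 109, 93.7, 63.7 and 63.8 on replicates 1 to 4. An offset therefore does not shift all arrays alike, and its part in these changes was not tested. The part of the higher background of replicate 1 in its low position was not tested.

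The wider pathway was read from 57 genes in 4 roles, of which 47 had a probe. Detection on every array held for 35 of them, beside 48.0% of all named genes. Of the rest, 1 was detected on a subset of arrays, and 11 were not detected. Of these 35, 0 passed the test of spread after adjustment (limma), beside 0.462% of all tested genes. An unadjusted p under 0.05 (limma) was found for 2, Sesn2 and Gdf15, a share near the 5.07% of all tested genes. The median SD of the 35 genes was 0.143 log2 units, beside 0.161 over all tested genes, again not matched for brightness.

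Of 10 measured regulators of p53, 8 were detected on every array, beside 48.0% of all named genes. The SDs of those 8 ran from 0.027 to 0.16 log2 units. Mdm4, the partner of Mdm2 in restraining p53, had levels of 3.40, 3.17, 3.11 and 3.27. The phosphatase gene Ppm1d, which ends the damage signal and is a p53 target, had a level of 0.025 ± 0.16 (n = 4), and the deubiquitinase gene Usp7, which protects Mdm2 from degradation, 3.53 ± 0.088 (n = 4). The ubiquitin ligase gene Rchy1 was well above background on 1 array and the p53 binding protein gene Tp53bp1 on none.

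Of 13 measured cell cycle and stress sensing targets, 6 were detected on every array, a share near the 48.0% of all named genes, and 7 on none, among them Btg2, an antiproliferative gene, and Plk2, a relative of Plk3. Sesn2, a sestrin that restrains mTOR signalling, had levels of 1.25, 1.98, 2.08 and 2.20 (unadjusted p = 0.0119 and adjusted p = 0.505, limma across genes). Gdf15, a secreted stress cytokine, had levels of 4.28, 5.13, 4.93 and 4.87 (unadjusted p = 0.0144 and adjusted p = 0.543, limma across genes). Both were lowest on replicate 1, as Gadd45a was, but the highest array was replicate 4 for Sesn2 and replicate 2 for Gdf15. Sesn1 was not matched to a probe.

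Sesn2 and Gdf15 are also known targets of the integrated stress response, whose factors were listed beside the p53 genes. Of the 8 listed factors of other pathways, 4 were lowest on replicate 1, namely Rela, Atf4, Ddit3 and Cebpb, beside 39.5% of all tested genes. Atf4 and Ddit3 stood there with 6.30 against 6.64 to 6.80 and 4.05 against 4.33 to 4.52 on the other arrays. Rela, the NF-kappaB subunit gene, had levels of 3.27, 3.80, 3.60 and 3.88, the same order of arrays as Gadd45a and Plk3. Of all tested genes, 6.08% had this order, and the p53 death target Bid, described below, had it too. Foxo3, a factor of growth factor signalling detected on 3 arrays, ran the other way with -0.92, -1.47, -1.91 and -2.56. Nfkb1 had levels of 2.46, 2.52, 2.44 and 2.80, and was lowest on replicate 3. Of 12 housekeeping genes, 6 were lowest on replicate 1 too, among them Actb at 8.73 against 9.11 to 9.32 and Gapdh at 9.42 against 9.57 to 9.73, while Hprt1 was lowest on replicate 3 at 5.16. With 4 arrays of 1 group no correlation between these genes was computed.

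**Figure D4:**
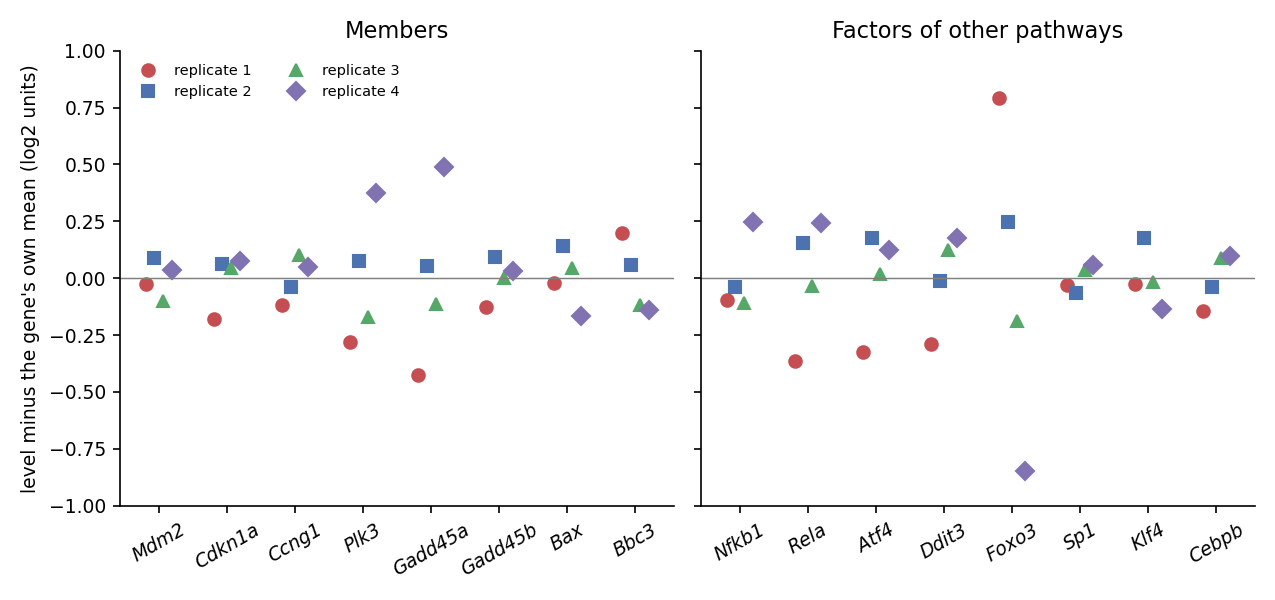
Level minus the gene's own mean over 4 arrays (log2 units) for the 8 detected members (left) and for all 8 listed factors of other pathways (right, Foxo3 detected on 3 arrays), with 1 marker per replicate. Replicate 1 is lowest for 5 of 8 members and for 4 of 8 genes on the right, and highest for Foxo3, and replicate 4 lies highest for Gadd45a, at 0.49 above its mean, and for Plk3.

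Of 13 measured death genes, 11 were detected on every array, beside 48.0% of all named genes. Pmaip1, which encodes the BH3-only protein NOXA, and Perp, a membrane protein of p53-driven death, were each detected on 0 of 4 arrays. Bid, another BH3-only gene, had levels of 1.42, 1.96, 1.67 and 2.02, the same order of arrays as Gadd45a and Plk3 (6.08% of all tested genes). The death receptor gene Fas had levels of -0.73, -0.66, -0.48 and -0.86.

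Of 11 measured repair and metabolism genes, 10 were detected on every array, beside 48.0% of all named genes, and Tp53i11 on none. The damage recognition genes Ddb2 and Xpc had levels of 1.53 ± 0.27 and -0.70 ± 0.22 (n = 4), and the translesion polymerase gene Polk 1.61 ± 0.14 (n = 4). Over all 4 roles, replicate 1 was the lowest array for 11 of the 35 tested genes, beside 39.5% of all tested genes.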

How the data were processed

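Cultures, grown in 15% serum, gave total RNA with an integrity number above 7.5, of which 100 ng was labelled, per the labels' protocols. The deposited files hold the intensity of each spot on a linear scale from Agilent Feature Extraction 11.0.1.1, background-subtracted and detrended within the array, per the file headers, with the version also in the submitters' processing notes; marks of 0 or 1 per spot, an other kind of value, flag signal well above background and outliers. Nothing was normalized between arrays. All 4 arrays lay on 1 slide scanned 1 time, so no batch could be tested.

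From these, replicate spots of each probe were averaged on the log2 scale, without control spots and non-uniform spots (1, 7, 0 and 6 on the 4 arrays), and the 75th percentile over probes was subtracted. A probe was detected if at least 50% of its spots were marked. Accessions without version were matched to RefSeq genes of GRCr8, for names only, which named 21109 of 45598 probes. Unnamed transcripts were kept and counted as genes in the test of spread and in the shares of tested genes. The brightest probe stood for a gene, and a gene was at background only if all its probes were. Spread was tested across genes with limma 3.58.1 in R 4.3.3: residual variance of an intercept against the squeezeVar prior with a trend, one-sided F test, Benjamini-Hochberg adjustment over all 14927 genes, threshold 0.05. The files hold no mean spot signal, so the alternative background correction (normexp, offset 50) used median signals instead of the planned means.

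Members and gene lists were chosen with earlier results of these data known. Named genes are all members, the first 3 of each list, those with small p and those behind a count of 5 or fewer; others named as examples (Plk2, Rrm1, Rrm2, Ddit3, Foxo3, Gadd45g, the markers) were picked after their values were seen. The gene of p53 itself was not analysed here. Alternatives covered scaling, background correction, probe choice, detection rule, filter, prior and leaving out each replicate.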

Additional observations from a re-analysis of the deposited data

Results flagged for a closer look

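The level of Cdkn1a on replicate 1, 5.51 against 5.74 to 5.77 on the other arrays, stood apart from the rest of its group: its gap to the nearest array was 0.881 of the whole range, above Dixon's critical value for 4 samples. Chance marks about 1 in 20 groups, and 26 genes or probes named in the text were examined in this way, so that 1 such value is no pattern. The second Cdkn1a probe, at -1.45 on replicate 1, was not apart there. With the normexp correction, which also adds an offset of 50 to every signal, Cdkn1a was not lowest on replicate 1. The part of the higher background of replicate 1 in this value was not tested.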

How the results depend on the processing

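The count of 8 members detected on all arrays did not change with probe choice, with all spots required, or without any of the replicates. The count of 0 members past the test of spread also held under all 12 alternatives run; the lowest adjusted p was 0.0736 (limma), for Gadd45a without the filter on dim probes. The count of all genes past that test depended strongly on the setting, against 69 as reported. It was 0 with the percentile over detected probes, 1 with quantile normalization, 237 with the normexp correction, 0 when the prior had no trend, 207 when it was made robust, 356 when dim probes were also tested, and between 27 and 162 when a replicate was left out; the cause was not tested. At an unadjusted p under 0.05 the 2 settings with 0 gave 721 and 897 genes. The number of members lowest on replicate 1 was 4 with the percentile over detected probes, with quantile normalization and with the mean of all probes, and 1 with the normexp correction, where 31.4%, 35.3%, 39.5% and 27.6% of all tested genes were lowest there. Replicate 4 minus replicate 1 under other scalings, a comparison chosen after seeing the data, was 0.90 to 0.91 for Gadd45a and 0.62 to 0.65 for Plk3. Mean levels kept within 1 SD for all 9 members with quantile normalization and without any replicate; the percentile over detected probes lowered all 9 by 3.52 log2 units, normexp moved all 9, and the mean of all probes took Cdkn1a from 5.69 to 2.15 and Bax from 5.94 to 4.80. No paired analysis was possible because there was 1 group. The 4 arrays limit the precision, and dim probes such as that of Rrm2b give only bounds.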
